A study of Mus musculus with 7 samples.

Results

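The expression of 42 genes of cholesterol, fatty acid, sphingolipid and ganglioside synthesis was compared between oligodendroglia of wild-type mice and oligodendroglia that overexpressed the transcription factor Sox9. The genes were a fixed list, matched by symbol, and all 42 were found once each among the 49315 genes of the count tables. They were divided by pathway step into 7 enzymes that form isoprenoids through mevalonate, 11 that build squalene and turn it into sterol, 4 regulators of these enzymes, 8 fatty acid enzymes, 4 ceramide enzymes, 4 genes of the galactolipids of myelin and 4 of glucosylceramide and gangliosides. All 42 passed the filter on low counts, so none was left out of the test. The control group (Sox9_ctrl, genotype Sox9-wt) had 3 libraries and the Sox9-tg group (Sox9_tg, genotype Sox9-tg) had 4, each made from total RNA of oligodendroglia from mouse brain, which the series' title places among NG2 glia soon after birth. NG2 glia are the dividing progenitors of oligodendrocytes. The sources used here do not give the promoter that drives Sox9 in the Sox9-tg cells, the age in days, how the cells were isolated or whether animals were pooled. The titles speak of biological replicates, but nothing says that libraries were made from different animals or cultures. The p-values therefore cover the spread between these libraries alone, and some of it may be technical.

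Myelin is the lipid-rich membrane that oligodendrocytes wrap around axons. Cholesterol is made from acetyl-CoA through mevalonate and squalene, and most of the enzymes are switched on together by the transcription factor SREBP2 when membrane sterol is scarce. SCAP carries SREBP proteins from the endoplasmic reticulum to the Golgi, where they are cut and released, and INSIG1 holds SCAP back when sterol is plentiful. Ceramide is the branch point of the sphingolipids. One enzyme adds galactose to ceramide and opens the way to galactosylceramide and sulfatide, the glycolipids characteristic of myelin, and another adds glucose and opens the way to gangliosides, the sialic acid-bearing lipids of neural cell surfaces.

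Libraries held 15768472 to 30507326 gene counts. Levels are given in CPM, a gene's count per 1000000 TMM-scaled counts of its library, and values after a ± sign are SDs over the 3 control or 4 Sox9-tg libraries. Sox9 itself was 239, 353 and 293 CPM in controls and 2207, 2741, 3597 and 3115 CPM with Sox9-tg, in the order of the replicate numbers that is used throughout, and the labels held in all 7 libraries. Sox9-tg libraries 3 and 4 differed less from each other than any other pair within a group (chi-square per gene 5.29, against 43.9 to 88.1) but by more than counting noise, which gives about 1, and they were kept as separate libraries. Summed markers of NG2 glia, 5 genes that all rose, were 1808 to 2172 CPM in controls and 4526 to 5955 CPM with Sox9-tg. Summed markers of premyelinating oligodendrocytes, 4 of 5 higher, were 128 to 195 CPM in controls and 798 to 2772 CPM with Sox9-tg. Myelinating oligodendrocyte markers, 4 of 6 tested higher, were 139.7 to 271 CPM in controls and 706 to 4389 CPM with Sox9-tg. Astrocyte markers (4 of 6 lower) were 1493 to 2833 CPM in controls and 942 to 1261 CPM with Sox9-tg, neuronal markers (5 of 6 lower) 473 to 642 CPM in controls and 226 to 317 CPM with Sox9-tg, and genes of dividing cells (5 of 6 lower) 1109 to 1808 CPM in controls and 401 to 787 CPM with Sox9-tg. Microglial and endothelial markers did not pass in any of 6 and 5 genes, and both were highest in control library 2, at 502 and 130.0 CPM against at most 207 and 31.03 CPM elsewhere. No defining marker was at 0 in any library. In bulk RNA, more cells of a type and more RNA per cell cannot be told apart, and this holds for every result that follows.

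Of the 42 genes, 7 rose in Sox9-tg libraries and 0 fell at an adjusted p under 0.05 (edgeR's quasi-likelihood test, Benjamini-Hochberg adjustment over all genes tested). That is 16.7% of the list higher, against 7.69% of the 16616 genes tested higher and 5.86% lower. An unadjusted p under 0.05 with a positive log2 fold change was reached by 17 of the 42, against 14.5% of all genes. The 7 genes lay in 3 of the 7 branches. Ugt8a, Gal3st1 and Fa2h, the enzymes of galactosylceramide and sulfatide, rose 8.63-fold to 24.2-fold. Elovl7 and Elovl6, which lengthen fatty acids, rose 8.32-fold and 1.94-fold, and the ganglioside enzymes St8sia1 and B4galnt1 2.01-fold and 1.49-fold. None of the 18 cholesterol enzymes and none of the 4 regulators or of the 4 ceramide enzymes listed passed. The median log2 fold change was 3.40 for the galactolipid genes, 0.47 for glucosylceramide and ganglioside genes, 0.40 for fatty acid, 0.38 for ceramide, 0.24 for sterol and 0.10 for mevalonate enzymes, and 0.21 for regulators. All genes tested had a median of -0.01. With the replicate number as a block, 13 of the 42 rose, the added 6 being Degs1, Cers2, Elovl1, Mvd, Scap and Acaca, against 9.63% of all genes higher in that fit. Without Sox9-tg library 1, which had the lowest oligodendrocyte marker sums of its group, 13 rose as well, here with St3gal5 in place of Acaca, against 10.9% of all genes. With DESeq2 in place of edgeR 12 rose, against 10.3% of all genes.

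**Figure D1:**
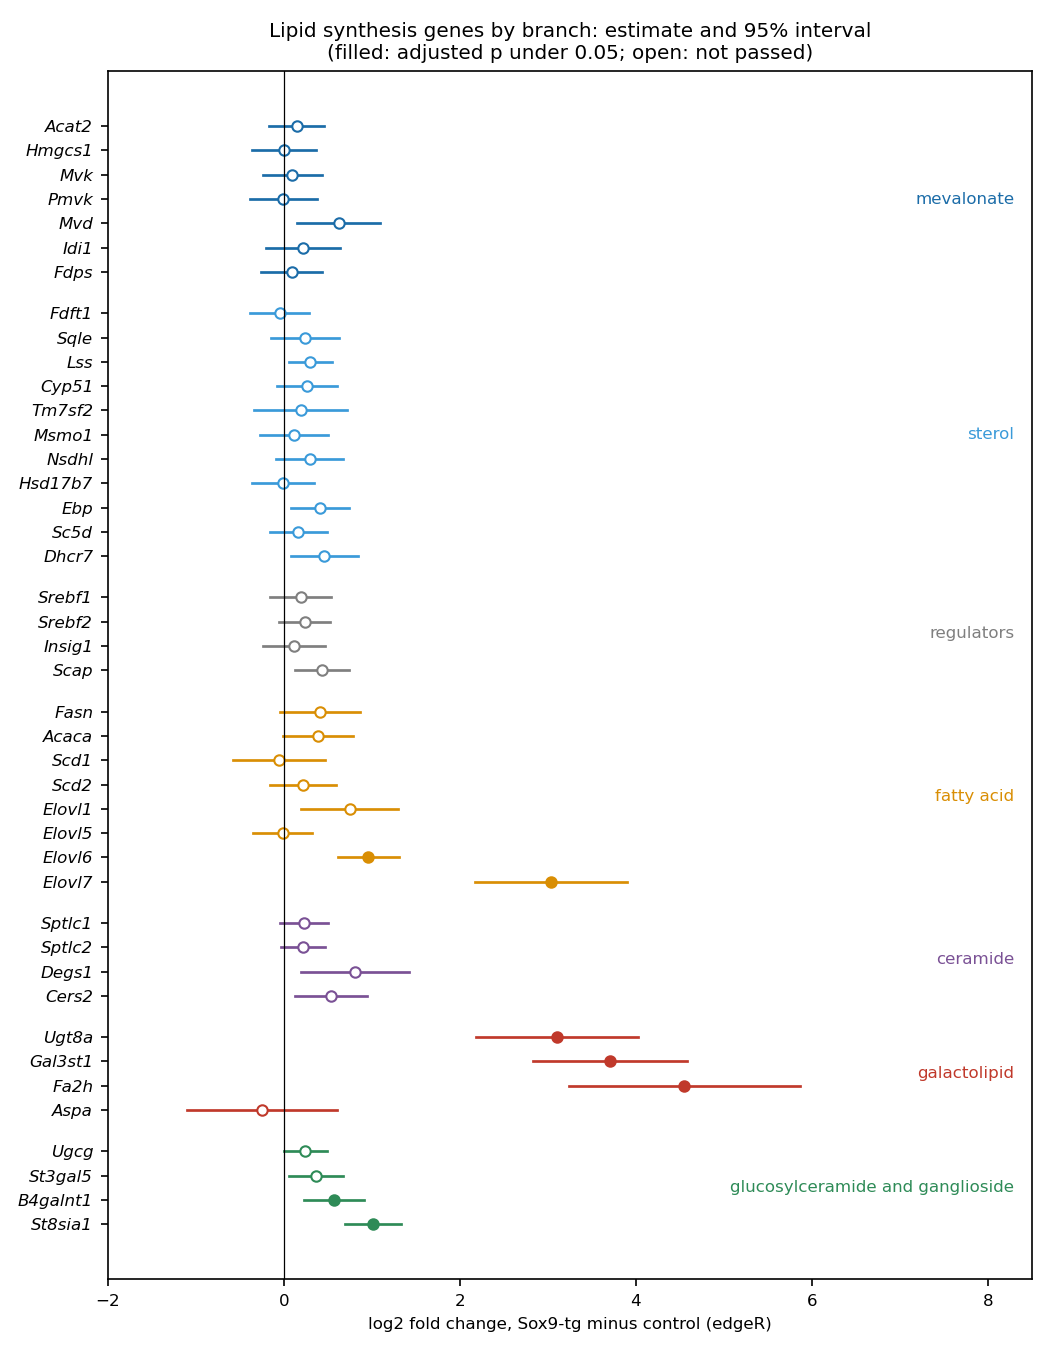
Estimated log2 fold change (horizontal axis, Sox9-tg minus control) of each of the 42 genes with its 95% interval, coloured by branch, with filled points for an adjusted p under 0.05. Ugt8a, Gal3st1, Fa2h and Elovl7 lie between 3.04 and 4.55, while the 18 mevalonate and sterol enzymes lie between -0.05 and 0.62 with open points.

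Promoters were read from the RefSeq table for GRCm38.p6, from 250 bases before to 50 after each annotated start. An entry was found for 35 of the 42 genes. Fa2h and B4galnt1, which rose, had none and were not searched. The same held for Fdps, Fdft1, Sqle, Scd1 and Scd2, which did not pass. Of the 18 cholesterol enzymes, 15 were searched. The windows were searched on both strands for a sterol response element (TCACNCCAC), the CCAAT box (CCAAT), a Sox motif (ACAANGG) and an E-box (CACGTG). These motifs do not contain each other. CCAAT was found for 14 of 15 cholesterol enzymes, against 41.1% of the 27025 genes of the table, and for 27 of the 35. The exact letters of the sterol response element were found in Hmgcs1 alone among the 35, against 1.44% of all genes, and the E-box in 8 of them, against 8.09%. The Sox motif was found in Gal3st1, St8sia1, Elovl5 and Hsd17b7 (11.4% of the 35), against 15.3% of all genes. A match is a description of letters and not a binding site. The 200 bases before the start, 5′ to 3′ with matches in capitals, are shown for 2 mevalonate enzymes whose promoters hold the most CCAAT boxes of their branch and that did not pass the test, and for the 2 genes that rose and hold the Sox motif. For Gal3st1, which has several annotated starts, the first is used. ATTGG is CCAAT read on the other strand. In Hmgcs1 the longest capital run matches the letters of the sterol response element. In Gal3st1 and St8sia1 the capitals ACAATGG and ACAAGGG match the Sox motif as searched, and the usual Sox letters are ACAATGG or ACAAAGG, so the St8sia1 match differs from both.
Hmgcs1 promoter, chr13:119690151-119690350, plus strand: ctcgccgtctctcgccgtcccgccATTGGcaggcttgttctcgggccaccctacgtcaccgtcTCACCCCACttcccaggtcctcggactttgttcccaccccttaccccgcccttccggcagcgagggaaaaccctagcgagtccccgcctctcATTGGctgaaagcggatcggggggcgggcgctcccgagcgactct
Mvk promoter, chr5:114444069-114444268, plus strand: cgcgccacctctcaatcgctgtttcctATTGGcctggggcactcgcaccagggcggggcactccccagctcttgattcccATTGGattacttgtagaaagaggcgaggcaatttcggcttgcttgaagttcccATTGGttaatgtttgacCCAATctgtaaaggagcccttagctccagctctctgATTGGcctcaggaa
Gal3st1 promoter, chr11:3983436-3983635, plus strand: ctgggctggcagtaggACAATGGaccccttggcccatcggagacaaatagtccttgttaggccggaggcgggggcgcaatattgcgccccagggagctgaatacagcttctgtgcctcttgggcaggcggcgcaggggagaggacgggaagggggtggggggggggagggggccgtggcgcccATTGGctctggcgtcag
St8sia1 promoter, chr6:142964453-142964652, minus strand: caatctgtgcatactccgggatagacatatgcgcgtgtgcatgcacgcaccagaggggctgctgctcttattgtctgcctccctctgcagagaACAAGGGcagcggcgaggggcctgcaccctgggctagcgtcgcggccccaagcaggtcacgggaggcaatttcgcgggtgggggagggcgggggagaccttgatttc

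The 3 enzymes of myelin galactolipids in the list all rose, and Aspa, the remaining gene of that branch, did not pass. Fa2h (ENSMUSG00000033579, GRCm38 chromosome 8, 111345135 to 111393824, minus strand), the fatty acid 2-hydroxylase that puts the hydroxyl group on the acyl chain of myelin galactolipids, was 1.28, 3.48 and 2.36 CPM in controls and 18.7, 93.4, 63.1 and 54.3 CPM with Sox9-tg. The lowest Sox9-tg library, replicate 1, was far over every control library. Its mean rose 24.2-fold, from 2.37 ± 1.10 to 57.4 ± 30.7 CPM (log2 fold change 4.55, SE 0.58, adjusted p = 0.00162). Gal3st1 (ENSMUSG00000049721, GRCm38 chromosome 11, 3983636 to 3999326, plus strand), the sulfotransferase that turns galactosylceramide into sulfatide, was 5.81, 11.7 and 8.38 CPM in controls and 57.1, 159, 125 and 113 CPM with Sox9-tg. The groups did not overlap, and library 2 was highest in both. Gal3st1 rose 13.1-fold (log2 fold change 3.70, SE 0.39, adjusted p = 0.000719). Ugt8a (ENSMUSG00000032854, GRCm38 chromosome 3, 125865271 to 125938619, minus strand), which transfers galactose to ceramide, was 14.4, 19.5 and 19.96 CPM in controls and 65.6, 244, 145 and 164 CPM with Sox9-tg. It rose 8.63-fold (log2 fold change 3.10, SE 0.41, adjusted p = 0.00186), with Sox9-tg library 1 again lowest and library 2 highest. Leaving out any single library left the log2 fold change at 4.23 to 4.92 for Fa2h, 3.51 to 3.99 for Gal3st1 and 2.81 to 3.35 for Ugt8a, with adjusted p at most 0.0133, 0.00700 and 0.0126 in edgeR. Across the 4 Sox9-tg libraries the premyelinating marker sum stood in the same places, 798 CPM in library 1, the lowest, and 2772 CPM in library 2, the highest. The myelinating marker sum did too, with 706 CPM in library 1, the lowest, and 4389 CPM in library 2, the highest. The part of either sum in the rise of these genes was not tested.

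**Figure D2:**
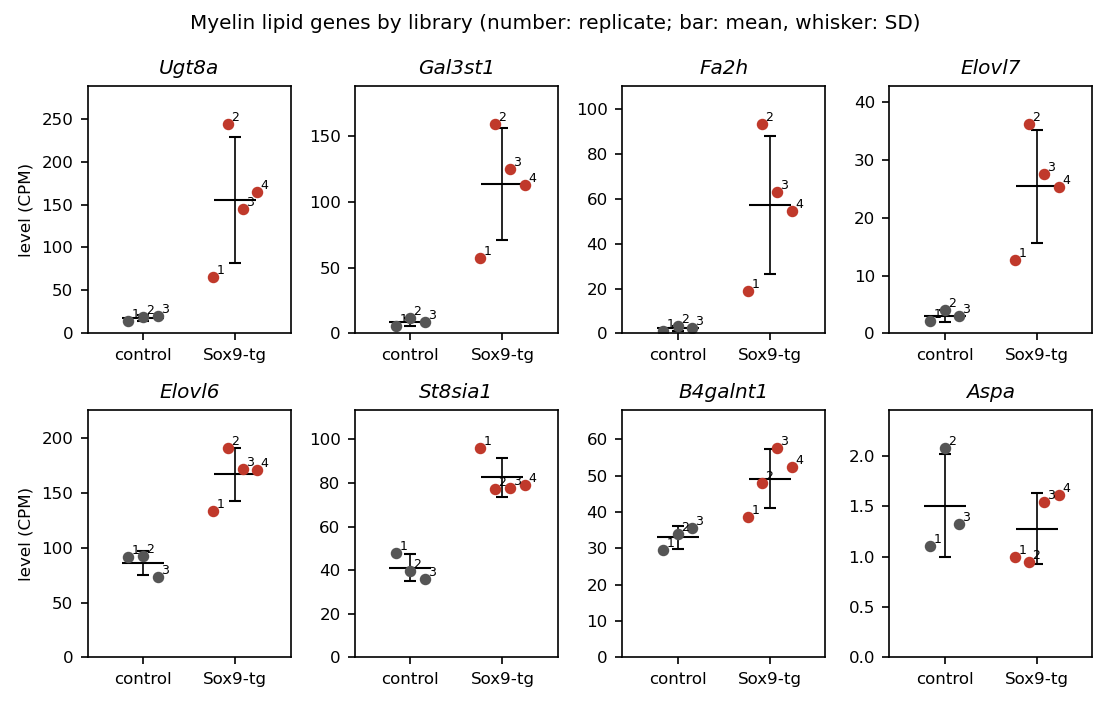
Level in CPM (vertical axes, from 0) of the 7 genes that rose and of Aspa in each library, numbered by replicate, with mean and SD. Sox9-tg library 1 is the lowest of its group for Ugt8a, Gal3st1, Fa2h, Elovl7, Elovl6 and B4galnt1 and the highest for St8sia1, at 96.1 CPM, and the groups overlap only for Aspa.

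Aspa, the aspartoacylase of mature oligodendrocytes that releases acetate from N-acetylaspartate, was grouped with them and is not itself an enzyme of galactolipids. It was 1.10, 2.08 and 1.33 CPM in controls and 0.998, 0.948, 1.55 and 1.61 CPM with Sox9-tg, and the groups overlapped (log2 fold change -0.25, adjusted p = 0.735). At 19 counts in its scarcest library it had the lowest count of the 42 genes, and the 95% interval of its fold change ran from 0.467 to 1.52. Per kilobase of exon, Gal3st1 went from 4.23 to 55.6 CPM and from place 38 to place 6 among the 42. Fa2h went from place 40 to 21 and Ugt8a from 39 to 11.

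Among 8 fatty acid genes, 2 elongases rose, and the enzymes upstream of them did not pass. Elovl7 (ENSMUSG00000021696, GRCm38 chromosome 13, 108214404 to 108285683, plus strand), an elongase of very long acyl chains, was 2.09, 4.13 and 2.94 CPM in controls and 12.7, 36.2, 27.5 and 25.3 CPM with Sox9-tg. The groups were far apart and Sox9-tg library 1 was lowest. Elovl7 rose 8.32-fold (log2 fold change 3.04, SE 0.38, adjusted p = 0.00160). Elovl6 (ENSMUSG00000041220, GRCm38 chromosome 3, 129532355 to 129638495, plus strand), which lengthens palmitate to stearate, was 91.7, 92.9 and 73.2 CPM in controls and 134, 191, 172 and 171 CPM with Sox9-tg. Every Sox9-tg library was over every control library, and Elovl6 rose 1.94-fold (log2 fold change 0.96, SE 0.15, adjusted p = 0.00454). Elovl1, which makes the saturated chains of sphingolipids, was 13.7, 22.4 and 13.9 CPM in controls and 18.8, 30.5, 31.8 and 30.9 CPM with Sox9-tg. Sox9-tg library 1 lay inside the control range, and Elovl1 did not pass (log2 fold change 0.75, adjusted p = 0.0778). With the replicate block its adjusted p was 0.0235, with DESeq2 0.0276, without Sox9-tg library 1 0.0195 and without control library 2 0.0268. Elovl1 overlaps the mitosis gene Cdc20 on the opposite strand by 53 of its 2726 exon bases, and with the use of strand not stated those reads cannot be assigned. Elovl5, which lengthens polyunsaturated fatty acids, had a log2 fold change of -0.01, with a fold interval from 0.785 to 1.25.

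Scd2, the main stearoyl-CoA desaturase of brain, was the most abundant of the 42 genes per kilobase, at 361 CPM per kilobase in controls and 419 with Sox9-tg. Its levels were 1816, 2277 and 1826 CPM in controls and 1978, 2200, 2467 and 2513 CPM with Sox9-tg, which overlapped (log2 fold change 0.21, adjusted p = 0.455). Scd1, its neighbour and close paralog with which reads could be shared, was 39.8, 82.9 and 45.7 CPM in controls and 50.8, 56.6, 56.4 and 53.3 CPM with Sox9-tg. Control library 2 stood over all others, and without it the log2 fold change went from -0.05 to 0.35, still not passing. Fasn, which assembles palmitate, was 775, 581 and 439 CPM in controls and 809, 914, 733 and 732 CPM with Sox9-tg, and control library 1 was level with the Sox9-tg range (log2 fold change 0.41, adjusted p = 0.230). Acaca, whose acetyl-CoA carboxylase supplies its malonyl-CoA, did not pass either (log2 fold change 0.39, adjusted p = 0.198), and with the replicate block it did (adjusted p = 0.0373).

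None of the 4 ceramide enzymes among the 42 genes passed, and all 4 had positive log2 fold changes. Degs1, the desaturase that forms ceramide from dihydroceramide, was 23.02, 40.5 and 31.6 CPM in controls and 33.6, 71.98, 55.1 and 61.9 CPM with Sox9-tg. Control library 2 was over Sox9-tg library 1, and the log2 fold change of 0.81 had an adjusted p of 0.0879. Cers2, the ceramide synthase for very long acyl chains, was 64.1, 85.7 and 78.9 CPM in controls and 79.9, 129, 116 and 117 CPM with Sox9-tg, with the same library 1 inside the control range (log2 fold change 0.54, adjusted p = 0.0856). Degs1 and Cers2 passed with the replicate block (adjusted p = 0.00366 and 0.0226), with DESeq2 (0.0245 and 0.0319) and without Sox9-tg library 1 (0.0157 and 0.0113). The serine palmitoyltransferase subunits Sptlc1 and Sptlc2, which begin sphingolipid synthesis, had log2 fold changes of 0.23 and 0.21, with upper 95% limits of 1.41-fold and 1.38-fold. Outside the 42, the ceramide synthase gene Cers1, named here after its values were seen, rose. It was 29.7, 45.1 and 39.3 CPM in controls and 44.6, 66.3, 69.7 and 69.9 CPM with Sox9-tg, with Sox9-tg library 1 under control library 2 (log2 fold change 0.72, SE 0.20, adjusted p = 0.0449). Its call was lost without control libraries 1 (0.146) or 3 (0.141), without Sox9-tg libraries 2 (0.0801), 3 (0.113) or 4 (0.112), and with upper-quartile (0.0643) or total-count scaling (0.0665).

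Of the glucosylceramide and ganglioside genes, 2 of 4 rose. St8sia1 (ENSMUSG00000030283, GRCm38 chromosome 6, 142821545 to 142964452, minus strand), the GD3 synthase whose product marks glial progenitors, was 47.95, 39.4 and 35.8 CPM in controls and 96.1, 77.1, 77.7 and 79.2 CPM with Sox9-tg. The groups did not overlap and here Sox9-tg library 1 was the highest, unlike in the other 6 genes that rose. St8sia1 rose 2.01-fold (log2 fold change 1.01, SE 0.14, adjusted p = 0.00243). B4galnt1 (ENSMUSG00000006731, GRCm38 chromosome 10, 127165225 to 127172330, plus strand), the GM2 and GD2 synthase needed for the complex gangliosides that stabilise contact between axon and myelin, was 29.5, 34.00 and 35.5 CPM in controls and 38.6, 47.8, 57.6 and 52.5 CPM with Sox9-tg. It rose 1.49-fold (log2 fold change 0.57, SE 0.15, adjusted p = 0.0373). It shares 715 of 3454 exon bases with Slc26a10, which had 127 counts over all libraries. The call of B4galnt1 was lost without any 1 of control libraries 1 (0.143), 2 (0.0813) and 3 (0.111) or Sox9-tg libraries 2 (0.0579), 3 (0.104) and 4 (0.106), and with scaling to total counts (0.0556), all adjusted p-values of edgeR. Ugcg, the glucosylceramide synthase, was 60.2, 49.1 and 57.7 CPM in controls and 68.8, 66.04, 66.02 and 63.05 CPM with Sox9-tg. Its groups did not overlap, yet the difference was small and did not pass (log2 fold change 0.25, adjusted p = 0.182). St3gal5, the GM3 synthase that supplies St8sia1 and B4galnt1, did not pass (log2 fold change 0.37, adjusted p = 0.115). Without Sox9-tg library 1, at 32.6 CPM against 42.2 to 43.3 CPM in the others, its adjusted p was 0.0211.

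Ugt8a and Ugcg both encode enzymes that add a sugar to ceramide. The ratio of Ugt8a to Ugcg per kilobase of exon turned over between the groups. Ugt8a over Ugcg was 0.274, 0.457 and 0.398 in control and 1.10, 4.25, 2.53 and 2.99 in Sox9-tg libraries. Per kilobase, Ugcg was the more abundant of the pair in each control library and Ugt8a in each Sox9-tg library. Without the scaling to exon length, Ugcg was still over Ugt8a in Sox9-tg library 1, at 68.8 against 65.6 CPM. The ratio of Fa2h to Cers2 was 0.0244, 0.0496 and 0.0366 in control and 0.286, 0.882, 0.662 and 0.567 in Sox9-tg libraries, with library 1 again lowest of its group. St8sia1 over St3gal5 was 0.437, 0.324 and 0.354 in control and 0.828, 0.512, 0.503 and 0.522 in Sox9-tg libraries, also without overlap. For B4galnt1 over St3gal5 the ranges overlapped, 0.728 to 0.950 in control and 0.858 to 1.01 in Sox9-tg libraries. A two-sided exact permutation test of 3 against 4 libraries cannot go below p = 0.0571. The first 3 ratios gave that value, as did Elovl7 over Elovl1 and Elovl6 over Elovl5, and B4galnt1 over St3gal5 gave p = 0.229 in the exact permutation test. Adjusted over the 6 ratios, the smallest value became 0.0686. The first gene of each ratio had already passed edgeR's test on its own, so these p-values add no separate support.

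None of the 18 cholesterol enzymes passed the test. An unadjusted p under 0.05 with a positive log2 fold change was reached by 4 of them, against 14.5% of all genes tested. Estimates of the 18 lay between 0.967-fold and 1.54-fold, and 15 of 18 were above 1 (83.3%). A positive log2 fold change was found in 48.6% of all genes tested. The upper 95% limit was under 1.5-fold for 10 of them and under 2-fold for 17, the exception being Mvd at 2.14-fold. Depth was not scarce, the lowest count of any of them in any library being 171. Hmgcs1 is the HMG-CoA synthase gene whose promoter window matches the letters of the sterol response element. It was 462, 554 and 397 CPM in controls and 416, 438, 499 and 534 CPM with Sox9-tg. The group means were level (471 ± 79.1 and 472 ± 54.5 CPM, log2 fold change 0.00), with a 95% interval from 0.780 to 1.29 times control. It was the most abundant of the 18 per kilobase, at 103 CPM in control. Mvk, the mevalonate kinase, was 48.01, 57.04 and 39.01 CPM in controls and 45.7, 48.98, 53.7 and 57.1 CPM with Sox9-tg, a range shared by both groups. Acat2, Pmvk, Idi1 and Fdps, which open the pathway, phosphorylate mevalonate and join the isoprenoid units, had log2 fold changes of 0.15, -0.0047, 0.22 and 0.09.

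Mvd, which decarboxylates mevalonate diphosphate, had the largest estimate of the 18. It was 34.9, 53.5 and 30.9 CPM in controls and 47.5, 62.8, 70.3 and 64.2 CPM with Sox9-tg, control library 2 lying over Sox9-tg library 1, and it did not pass (log2 fold change 0.62, adjusted p = 0.0901). It passed with the replicate block (adjusted p = 0.0447), with DESeq2 (0.0400), without control library 2 (0.0184) and without Sox9-tg library 1 (0.0424). Among the sterol enzymes, Dhcr7, the 7-dehydrocholesterol reductase of the last step, was 74.2, 102 and 68.6 CPM in controls and 108, 92.3, 125 and 124 CPM with Sox9-tg. Control library 2 fell among the Sox9-tg values, and Dhcr7 did not pass (log2 fold change 0.46, adjusted p = 0.116) except without that library (adjusted p = 0.0415). Lss, the cyclase that forms lanosterol, was 92.1, 104 and 86.1 CPM in controls and 119, 111, 111 and 122 CPM with Sox9-tg. Its groups did not overlap, nor did those of the isomerase gene Ebp (10.8 ± 0.966 and 14.3 ± 1.34 CPM), and neither passed (log2 fold change 0.30, adjusted p = 0.104 for Lss; log2 fold change 0.41, adjusted p = 0.109 for Ebp). Sqle, the epoxidase that is a control point of the pathway, was 189, 213 and 147 CPM in controls and 188, 187, 244 and 245 CPM with Sox9-tg, with overlap (log2 fold change 0.24, adjusted p = 0.415). Fdft1, the squalene synthase, was 125, 119 and 93.3 CPM in controls and 104, 91.4, 123 and 116 CPM with Sox9-tg, the groups overlapping again. Fdft1 shares 774 of its 4227 exon bases with Ctsb on the opposite strand, and with the use of strand not stated Ctsb reads may be among its counts. Cyp51 shares 166 of 4415 exon bases with Akap9 and Tm7sf2 532 of 4403 with Vps51. Cyp51, Nsdhl, Tm7sf2, Sc5d, Msmo1 and Hsd17b7, which remove the methyl groups and set the double bonds, had log2 fold changes from -0.01 to 0.29, none past the threshold.

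**Figure D3:**
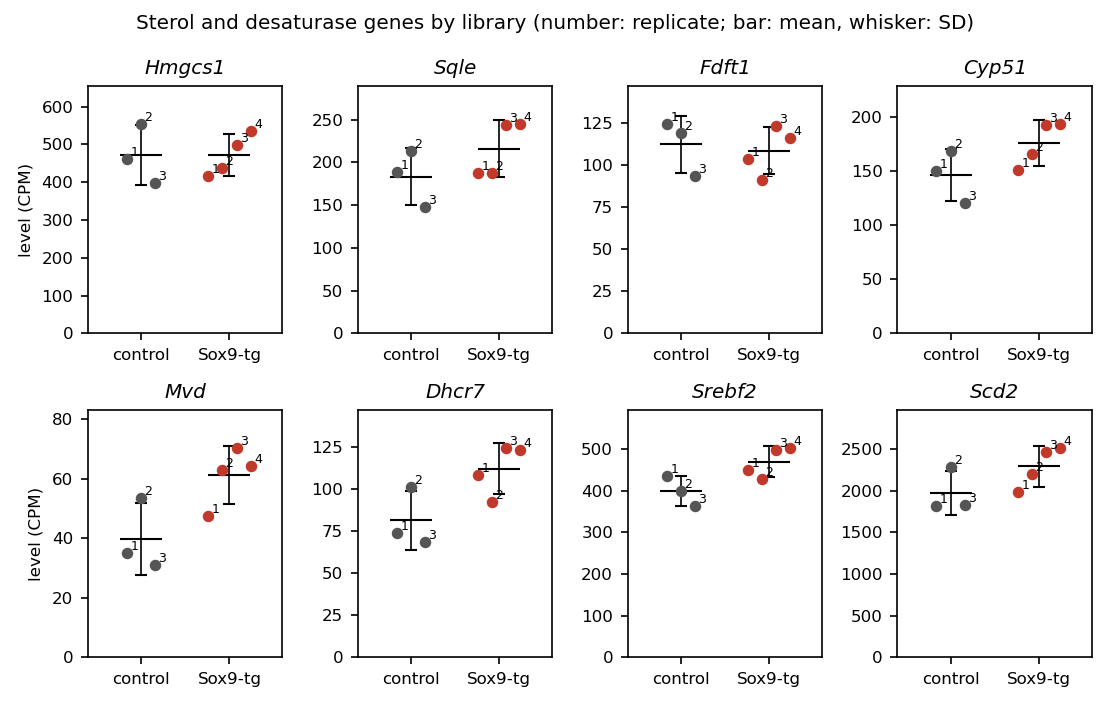
Level in CPM (vertical axes, from 0) of 6 cholesterol enzymes, Srebf2 and Scd2 in each library, numbered by replicate, with mean and SD. The groups overlap in every one of the 8 panels, and control library 2 is the highest control library for Hmgcs1, Sqle, Cyp51, Mvd, Dhcr7 and Scd2.

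The cholesterol enzymes varied together between libraries of the same group. Control library 2 was the highest control library for 16 of the 18 and control library 3 the lowest for 15. Among Sox9-tg libraries, library 1 was lowest for 12, and libraries 3 or 4 were highest for 16. Summed over the 18, levels were 1733, 2040 and 1464 CPM in controls and 1766, 1786, 2093 and 2129 CPM with Sox9-tg. Control library 2 lay over Sox9-tg libraries 1 and 2. Control library 2 was also the one with the most astrocyte, microglial and endothelial marker RNA, at 2833 CPM of astrocyte markers against 1493 and 2168 CPM in libraries 1 and 3. The part of these markers in its sterol enzyme levels was not tested. Without it 9 of the 42 genes rose, against 7.34% of all genes tested, Mvd, Dhcr7 and Elovl1 being added and B4galnt1 lost.

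The 4 regulators did not pass. Srebf2, which encodes SREBP2, was 435, 399 and 364 CPM in controls and 449.9, 429, 499 and 503 CPM with Sox9-tg, and the log2 fold change was 0.24 (adjusted p = 0.287). Control library 1 fell among the Sox9-tg values. Srebf1, which encodes the SREBP1 proteins that favour fatty acid genes, had a log2 fold change of 0.19, and Insig1, itself a target of SREBP, one of 0.12 (fold interval from 0.851 to 1.39). Scap was 90.6, 110.3 and 111 CPM in controls and 115, 146, 153 and 147 CPM with Sox9-tg. Its groups did not overlap, but the call was missed (log2 fold change 0.43, adjusted p = 0.0699), and it was made with the replicate block (adjusted p = 0.0432), with DESeq2 (0.0196) and without Sox9-tg library 1 (0.0164). Counting all branches, 12 of the 42 genes had every Sox9-tg library over every control library (28.6%), against 13.1% of all genes tested, and 0 had the reverse, against 11.5%.

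**Figure D4:**
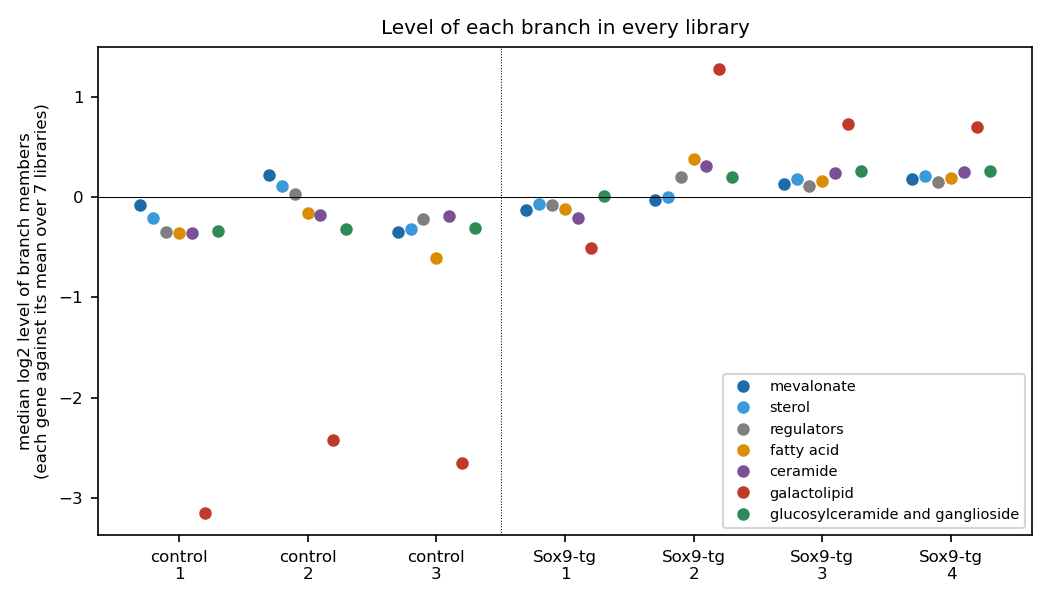
Median log2 level of each branch in every library (vertical axis), each gene taken against its own mean over the 7 libraries. The galactolipid branch runs from -3.15 to 1.28, while mevalonate enzymes stay between -0.35 and 0.22, both ends being control libraries.

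Genes of the same pathways outside the 42 were taken as 5 further lists of 117 genes, of which 109 were tested. Of these, 16 rose (14.7%) and 4 fell (3.67%), against 7.69% of all genes tested higher and 5.86% lower, which is the background for each list that follows. Of 25 tested genes of cholesterol uptake, export and storage, 1 rose (4.00%) and 0 fell (median log2 fold change 0.08). That gene was Npc1, which exports cholesterol from lysosomes (114 ± 11.3 to 186 ± 43.2 CPM, log2 fold change 0.70, adjusted p = 0.0445), and its call was lost without control libraries 1, 2 or 3 or Sox9-tg libraries 2, 3 or 4 (adjusted p = 0.0651 to 0.148). It was lost too with upper-quartile (0.0601) or total-count scaling (0.0571). Of 28 genes of fatty acid supply and use, 4 rose (14.3%) and 2 fell (7.14%; median log2 fold change 0.14). Me1, the malic enzyme that supplies NADPH, was 23.7, 42.7 and 32.99 CPM in controls and 62.5, 85.1, 77.4 and 90.3 CPM with Sox9-tg, without overlap (log2 fold change 1.25, SE 0.21, adjusted p = 0.00591). The acyl-CoA synthetase gene Acsl5 (log2 fold change 1.20, adjusted p = 0.0194) and the acetyl-CoA carboxylase gene Acacb (log2 fold change 1.88, adjusted p = 0.0364) rose as well. Acsl5 was lost without control libraries 1 (0.0643) or 3 (0.0876) or Sox9-tg library 4 (0.0512). Acacb was lost without control libraries 1 (0.103) or 3 (0.132) or Sox9-tg libraries 2 (0.0616), 3 (0.0717) or 4 (0.0584). Fabp5, a fatty acid binding protein, fell from 205 ± 17.6 to 91.4 ± 10.02 CPM (log2 fold change -1.17, SE 0.12, adjusted p = 0.000744), and Thrsp, a lipogenic regulator, fell from 4.83 ± 1.54 to 2.00 ± 0.633 CPM (log2 fold change -1.28, adjusted p = 0.0417). The Thrsp call was lost without any 1 of the 7 libraries (adjusted p = 0.0501 to 0.135) and with no filter on low counts (0.0568).

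Of 7 genes of ether lipid synthesis, which supplies the plasmalogens of myelin, 1 rose (14.3%) and 0 fell (median log2 fold change 0.21). This was Far1, the fatty acyl-CoA reductase that is the pathway's control point, at 72.2, 63.3 and 63.6 CPM in controls and 95.2, 107, 97.6 and 92.5 CPM with Sox9-tg (log2 fold change 0.56, SE 0.11, adjusted p = 0.00928). The groups did not overlap, and the call was lost without control library 3 (adjusted p = 0.0653). Of 31 other sphingolipid enzymes, 6 rose and 0 fell (median log2 fold change 0.17), against 7.69% and 5.86% of all genes. Gltp, the glycolipid transfer protein, was 40.3, 58.1 and 50.4 CPM in controls and 85.8, 229, 171 and 165 CPM with Sox9-tg (log2 fold change 1.71, SE 0.30, adjusted p = 0.00708), with the same order of Sox9-tg libraries 1 and 2 as Ugt8a. Sgms1, the sphingomyelin synthase, was 8.25, 17.5 and 13.8 CPM in controls and 23.2, 49.6, 33.4 and 36.3 CPM with Sox9-tg (log2 fold change 1.42, adjusted p = 0.0165), and was lost without control library 3 (adjusted p = 0.0663). Sphk1, which phosphorylates sphingosine, rose from 1.90 ± 0.705 to 5.16 ± 1.11 CPM (log2 fold change 1.43, adjusted p = 0.0223), a call lost without control libraries 1 (0.0670) or 3 (0.0951) or Sox9-tg libraries 3 (0.0569) or 4 (0.0572). Samd8, a relative of the sphingomyelin synthases, rose from 85.7 ± 4.72 to 115 ± 8.19 CPM (log2 fold change 0.43, adjusted p = 0.0274), and lost its call without control libraries 1 (0.0956), 2 (0.0730) or 3 (0.0814), without Sox9-tg library 3 (0.0748) or with no filter on low counts (0.0529).

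Of 18 other ganglioside enzymes, 4 rose (22.2%) and 2 fell (11.1%), against 7.69% of all genes tested higher and 5.86% lower (median log2 fold change 0.26). St6galnac5, a sialyltransferase that makes alpha-series gangliosides, was 72.2, 93.02 and 75.9 CPM in controls and 19.5, 15.6, 22.3 and 22.9 CPM with Sox9-tg. The groups were wide apart and it fell by 2.00 on the log2 scale (SE 0.16, adjusted p = 0.000236). St3gal1, an alpha-2,3-sialyltransferase acting mainly on O-glycans, was 14.9, 11.7 and 13.9 CPM in controls and 6.04, 5.84, 5.93 and 6.29 CPM with Sox9-tg (log2 fold change -1.16, SE 0.16, adjusted p = 0.00237), with little spread in either group. On the rising side, B4galt6, which makes lactosylceramide from the product of Ugcg, was 33.4, 51.6 and 41.3 CPM in controls and 107, 88.8, 96.7 and 99.7 CPM with Sox9-tg (log2 fold change 1.22, SE 0.16, adjusted p = 0.00173). St8sia5, which adds further sialic acids to complex gangliosides, was 3.84, 3.64 and 3.59 CPM in controls and 9.77, 15.7, 13.5 and 15.8 CPM with Sox9-tg (log2 fold change 1.89, SE 0.22, adjusted p = 0.00107). Neither overlapped between groups. Neu4, a sialidase, was chosen for mention after its values were seen, having the largest log2 fold change in the 5 lists. It was 0.872, 5.27 and 4.43 CPM in controls and 36.8, 166, 114 and 78.1 CPM with Sox9-tg without overlap, with a log2 fold change of 4.75 (SE 0.67, adjusted p = 0.00258). Its Sox9-tg levels followed the order of Gal3st1, library 2 highest and library 1 lowest.

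**Figure D5:**
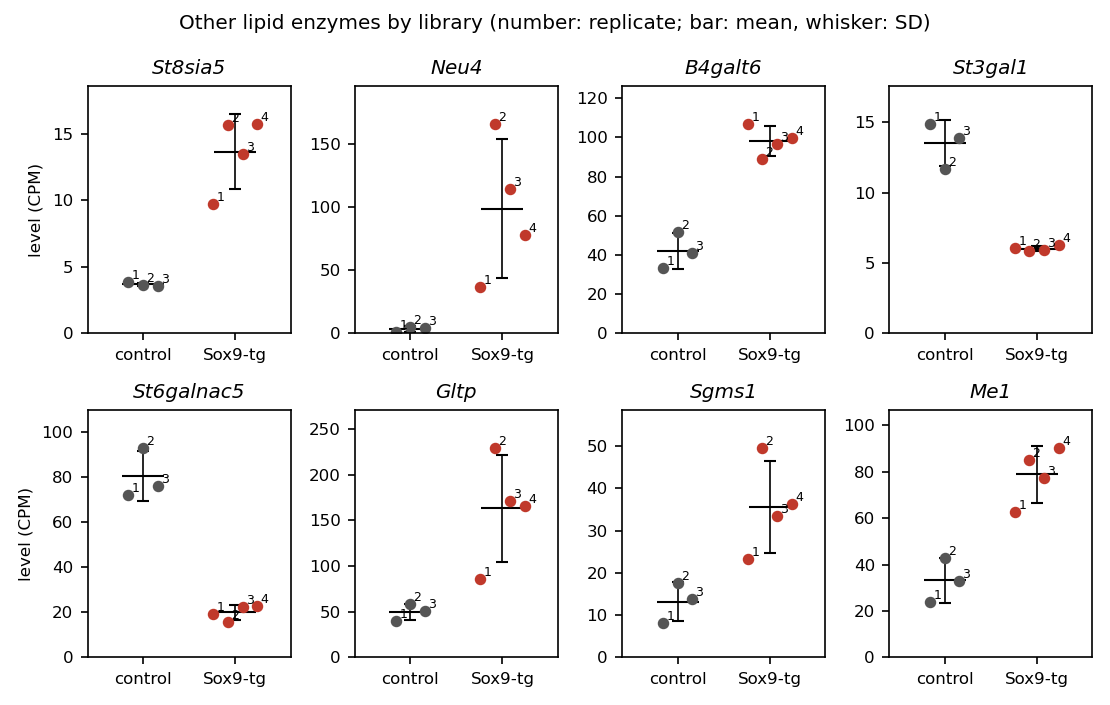
Level in CPM (vertical axes, from 0) of 8 lipid enzymes outside the 42 genes in each library, numbered by replicate, with mean and SD. The sialyltransferase genes St3gal1 and St6galnac5 are lower in all 4 Sox9-tg libraries and the other 6 genes higher, with no overlap between groups.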

How the data were processed

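RNA sequencing counts of 3 control and 4 Sox9-tg libraries were used. For each library the authors deposited raw counts of reads per gene, which are whole numbers and not normalized. The submitters' processing notes name the build GRCm38 and the tools STAR 2.5.2b, Trimmomatic 0.36, Subread 1.5.2 with featureCounts, DESeq and DESeq2. The sources used here do not give their order, the annotation release, the use of strand or the treatment of reads with several matches, so reads of paralogs, overlapping genes and antisense partners cannot be assigned with certainty.

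Genes with low counts were removed with filterByExpr at its defaults (minimum count 10, total 15), leaving 16616 of 49315, with 0.08% to 0.36% of each library's counts removed. Counts were scaled by TMM and tested with edgeR 4.0.16 (R 4.3.3), quasi-likelihood F test, group as the only term, two-sided, Benjamini-Hochberg adjustment over all genes tested, threshold 0.05. The standard error was the log2 fold change divided by the square root of F, and 95% intervals used the fit's t quantiles. The biological coefficient of variation was 0.265. Levels per kilobase used exon unions of GENCODE M21 (GRCm38), in which 49056 of the gene IDs were found. The steps were tested on simulated counts.

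Same-numbered control and Sox9-tg libraries deviated from their group means together (Pearson r across genes 0.362, 0.626 and 0.110 for numbers 1 to 3), so results of a fit with the replicate number as a block are given where they change a call. The third value is small, and control library 3 correlated more with Sox9-tg library 1 (0.133). Sox9-tg library 4 has no partner and adds nothing to that fit. Alternatives were upper-quartile, RLE and total-count scaling, DESeq2 1.42.0, limma-voom (limma 3.58.1), no filter, a stricter filter (over 1 CPM in at least 3 libraries), the block, and leaving out each library.

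The 42 genes, their branches and all lists were chosen with earlier results of these data known, so counts and medians of lists describe and do not test them. Genes named were all 42, Sox9 and, from each of 5 further pathway lists, up to 4 with the smallest p among those past the threshold (14 genes); Neu4, Thrsp and Cers1 were added after their values were seen.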

Additional observations from a re-analysis of the deposited data

Results flagged for a closer look

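In 5 of 60 genes checked, 1 Sox9-tg library stood apart from the other 3 on the log2 scale by Dixon's criterion for 4 samples, and chance alone marks about 1 in 20 groups. The library was replicate 1 in each. It was the lowest of its group for Scap (115 CPM, nearest library 146), Elovl1 (18.8 CPM, nearest 30.5), Cers1 (44.6 CPM, nearest 66.3) and St3gal5 (32.6 CPM, nearest 42.2), and the highest for St8sia1 (96.1 CPM, nearest 79.2).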

How the results depend on the processing

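Over 15 alternatives, 800 of 900 values of named genes kept their direction and side of the threshold, and 0 of the 31 reversals concerned a gene that passed with all libraries. Ugt8a, Gal3st1, Fa2h, Elovl6, Elovl7 and St8sia1 passed under all 15. Of the 42 genes, 12 rose with DESeq2 (1 mevalonate, 1 regulator and 2 ceramide genes among them) and 13 with the replicate block (1 mevalonate, 1 regulator, 2 ceramide and 4 fatty acid genes among them). The block also gave 8 lower genes in the 5 further lists against 4. That fit called 9.63% of all genes higher, against 7.69% without the block. Its share of all genes lower is not given here, so the 8 cannot be set against it. With total-count scaling 1 ganglioside gene passed. Leaving out 1 library gave 6 to 13 higher and 0 lower of the 42. It gave 965 to 3169 changed genes in all and 5 to 23 higher genes in the further lists. By branch the counts were 0 to 1 (mevalonate), 0 to 1 (sterol), 0 to 1 (regulators), 0 to 2 (ceramide) and 1 to 3 (ganglioside). The 965 and 3169 changed genes at the ends were found without control library 3 and without Sox9-tg library 1. Signs of log2 fold changes near 0 turned: Hmgcs1 -0.0509 under upper-quartile factors; Hmgcs1 -0.0522 under total counts only; Scd1 0.0168 under limma-voom; Pmvk 0.0100, Hsd17b7 0.000837, Elovl5 0.00162 under no low-count filter; Hmgcs1 -0.00585 under stricter filter; Hmgcs1 -0.0548, Hsd17b7 0.00792, Scd1 0.0311 under replicate block. Leaving out libraries, those that turned ranged as follows: Aspa -0.400 to 0.0730, Elovl5 -0.0756 to 0.125, Fdft1 -0.160 to 0.0488, Fdps -0.0363 to 0.253, Hmgcs1 -0.103 to 0.142, Hsd17b7 -0.121 to 0.0791, Msmo1 -0.0406 to 0.345, Mvk -0.0285 to 0.248, Pmvk -0.0895 to 0.148, Scd1 -0.231 to 0.348. The cause was not tested in any of these. The lowest counts in a library were 19 for Aspa, 22 for Fa2h and 36 for Elovl7, and the 95% interval of the Fa2h fold change ran from 9.45 to 58.05.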
